A study of Mus musculus with 4 samples.

Results

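The glycine cleavage system and the cytosolic folate enzymes, of which *Aldh1l1* is used to mark astrocytes, were followed through 7 genes, *Gldc*, *Amt*, *Gcsh*, *Dld*, *Aldh1l1*, *Shmt1* and *Mthfd1*. The genes were taken by symbol, with no threshold on a measured value, from the 32286 features counted in each nucleus, and all 7 were found. Their counts came from 4 single-nucleus RNA-seq (snRNA-seq) libraries of the cortex and hippocampus, each from 1 mouse on the C57BL/6J background at 5 weeks of age. All 4 mice carried the floxed allele of *Sel1L* (genotype Sel1L flox/flox), which encodes the cofactor of an endoplasmic reticulum ubiquitin ligase. In the 2 *Sel1L* SynCre mice the Synapsin I promoter, which is active in neurons, also drove Cre recombinase, and the 2 *Sel1L* fl/fl mice served as the controls. Cre was thus directed at neurons, and astrocytes and oligodendrocyte precursor cells (OPCs) were not its target. Of 33304 nuclei kept, 1645 were astrocyte-like, 22683 neuron-like and 1283 OPC-like, named from marker genes that did not include any of the 7 genes. The question was how these genes differed between astrocytes, neurons and OPCs and whether they differed between the genotypes.

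Per library, 6801 to 11105 nuclei with 66436503 to 101224188 unique molecular identifiers (UMIs) were kept, of which astrocyte-like nuclei supplied 744201 to 2558509 UMIs, OPC-like nuclei 1025316 to 1733291 and neuron-like nuclei 59151316 to 85771781. Levels are given as CPM, the UMIs of a gene scaled to the same total in every class and library. Where 4 values follow each other, the first pair is *Sel1L* fl/fl, replicate 1 before 2, and the last pair *Sel1L* SynCre in the same way. The labels did not match the Cre transcript in 1 library. Replicate 1 of the *Sel1L* fl/fl label held 415 UMIs of Cre, or 4.10 CPM, whereas replicate 2 held 0, which allows up to 0.0439 CPM. The *Sel1L* SynCre replicates held 234 and 217 UMIs, or 3.50 and 3.27 CPM. *Sel1l* itself, whose 3′ counts need not lie in the deleted part, stood at 97.1, 90.1, 155 and 128 CPM, so the deletion could not be read from it. Genotypes are therefore given as labelled, and the largest differences between them are also given without *Sel1L* fl/fl replicate 1. The libraries shared 9 to 28 barcodes pairwise. The 9 astrocyte markers summed to 19051 to 22162 CPM in astrocyte-like, 5191 to 5370 in OPC-like and 546 to 683 in neuron-like nuclei. These markers were used to name the classes, so the sums describe the classes and do not test the names. With the 4 libraries summed, none of the 9 was at 0 in any of the 3 classes. In single libraries, *Gfap* was at 0 in OPC-like nuclei of *Sel1L* SynCre replicate 1.

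The glycine cleavage system is a mitochondrial assembly that breaks glycine into carbon dioxide and ammonia and hands the remaining carbon to tetrahydrofolate. *Gldc* encodes its P protein, a decarboxylase that starts the reaction, *Gcsh* the lipoate-bearing H protein that carries the intermediate, *Amt* the T protein that passes the carbon to folate, and *Dld* the L protein, a dehydrogenase that re-oxidizes lipoate here and in the pyruvate, 2-oxoglutarate and branched-chain dehydrogenase complexes. In the cytosol, *Shmt1* interconverts serine and glycine, *Mthfd1* interconverts folate carbon units, and *Aldh1l1* oxidizes 10-formyltetrahydrofolate and is widely used as a marker of astrocytes.

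In the GENCODE vM21 annotation of mouse build GRCm38, *Gldc* (ENSMUSG00000024827) lies at chr19:30098447-30175429 on the minus strand and *Gcsh* (ENSMUSG00000034424) at chr8:116981810-116993537 on the minus strand. *Amt* (ENSMUSG00000032607) lies at chr9:108296853-108302302 on the plus strand and *Dld* (ENSMUSG00000020664) at chr12:31331277-31351453 on the minus strand. These 4 genes shared no exon or intron with another counted gene. *Aldh1l1* (ENSMUSG00000030088, chr6:90486427-90600203, plus strand) overlaps the long noncoding *Gm45901* on its own strand over 33054 bp and the antisense *Gm15756* over 3252 bp. *Mthfd1* (ENSMUSG00000021048, chr12:76255298-76319803, plus strand) overlaps the antisense *Gm34868* over 19090 bp and *Gm47525* over 37 bp. *Shmt1* (ENSMUSG00000020534, chr11:60788104-60811718, minus strand) overlaps the last 184 bp of *Smcr8* on the other strand. Whether counting used strand and introns is not given in the sources used here. The counts of *Aldh1l1* could thus include reads of *Gm45901*. Those of *Mthfd1* and *Shmt1*, whose partners lie on the other strand, could do so only if strand was not used.

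The promoters of 4 of the genes are shown because they set a pair that stood high in astrocyte-like nuclei, *Gldc* and *Aldh1l1*, beside a pair whose astrocyte and neuron levels did not pass a test of a difference, *Amt* and *Mthfd1*. Each runs 5′ to 3′ on the strand of its gene from 250 bases before to 50 bases after the RefSeq start (GRCm38.p6), and capitals mark the CCAAT box (CCAAT) and the GC box (GGGCGG) on either strand. The windows are chr19:30175392-30175691 (minus) for *Gldc*, chr6:90550543-90550842 (plus) for *Aldh1l1*, chr9:108296655-108296954 (plus) for *Amt* and chr12:76254982-76255281 (plus) for *Mthfd1*, and the *Aldh1l1* start used by RefSeq lies inside the longer gene drawn by GENCODE.
Gldc: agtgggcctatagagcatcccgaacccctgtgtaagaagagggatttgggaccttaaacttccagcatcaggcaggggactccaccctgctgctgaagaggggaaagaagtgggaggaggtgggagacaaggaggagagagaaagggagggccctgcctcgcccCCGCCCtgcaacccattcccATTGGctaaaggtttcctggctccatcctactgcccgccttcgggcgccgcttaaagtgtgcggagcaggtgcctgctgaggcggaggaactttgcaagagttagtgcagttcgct
Aldh1l1: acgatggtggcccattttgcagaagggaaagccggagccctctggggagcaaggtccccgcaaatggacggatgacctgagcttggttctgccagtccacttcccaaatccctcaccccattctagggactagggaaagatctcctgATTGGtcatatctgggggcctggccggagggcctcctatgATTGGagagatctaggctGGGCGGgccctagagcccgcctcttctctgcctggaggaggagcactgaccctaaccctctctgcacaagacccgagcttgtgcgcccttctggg
Amt: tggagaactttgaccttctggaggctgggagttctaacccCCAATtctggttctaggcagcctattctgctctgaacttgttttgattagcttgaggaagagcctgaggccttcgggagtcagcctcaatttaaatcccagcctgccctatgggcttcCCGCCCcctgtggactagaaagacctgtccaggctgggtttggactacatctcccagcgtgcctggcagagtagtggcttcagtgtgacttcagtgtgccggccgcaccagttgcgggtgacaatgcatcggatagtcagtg
Mthfd1: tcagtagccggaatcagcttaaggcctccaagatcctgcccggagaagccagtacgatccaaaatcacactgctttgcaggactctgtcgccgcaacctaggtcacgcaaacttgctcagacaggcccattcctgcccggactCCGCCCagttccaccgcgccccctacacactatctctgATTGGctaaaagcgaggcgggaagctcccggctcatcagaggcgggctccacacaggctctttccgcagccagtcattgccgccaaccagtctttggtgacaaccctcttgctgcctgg

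All 7 genes had a promoter in the RefSeq table. CCAAT was found in 7 of the 7, against 37.4% of 32851 promoters of this length, and GGGCGG in 6 of the 7, against 35.7%, with *Dld* the gene without it. In *Gldc* and *Mthfd1* a CCAAT box on the opposite strand lay 66 and 69 bases before the start, with a GC box 86 and 107 bases before it. In *Aldh1l1*, CCAAT boxes lay 103 and 63 bases before the start. In *Amt* the nearest CCAAT box was 210 bases away. Another 5 words were searched on both strands and matched none of the 7 windows, namely the nuclear factor I palindrome (0.0365% of all promoters), its shorter form TTGGCA (14.1%), the element TGATGNAA bound by ATF4 (3.97%), the E-box CACGTG (7.15%) and TATAAA (13.6%). The 4 promoters printed were 59.0%, 60.0%, 54.7% and 59.0% G or C in the order shown, against a median of 52.7% over all promoters. Each of the 4 held both boxes, the pair high in astrocytes and the other pair alike.

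*Gldc* was counted mainly in astrocyte-like nuclei, at 287, 259, 206 and 204 CPM, with a mean of 239 ± 40.9 (SD, n = 4). In OPC-like nuclei it stood at 24.2, 25.9, 28.3 and 32.2 CPM, and in neuron-like nuclei at 1.91, 2.06, 2.54 and 2.32 CPM. No library of 1 class reached the range of another, and in every library the order was astrocyte-like, then OPC-like, then neuron-like. *Aldh1l1* was also high in astrocyte-like nuclei, at 109, 137, 159 and 134 CPM (135 ± 20.6, SD, n = 4). In neuron-like nuclei it stood at 6.30, 4.78, 4.21 and 4.66 CPM and in OPC-like nuclei at 2.31, 5.04, 0.884 and 5.85 CPM, on 18 UMIs in all. Its neuron-like and OPC-like ranges overlapped, so *Gldc* set OPCs above neurons and *Aldh1l1* did not. Per UMI of *Aldh1l1*, *Gldc* had 2.63, 1.89, 1.29 and 1.52 UMIs in astrocyte-like nuclei, 0.304, 0.431, 0.602 and 0.498 in neuron-like nuclei and 5.14 to 32.0 in OPC-like nuclei, where the denominators were 4, 7, 1 and 6 UMIs.

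**Figure D1:**
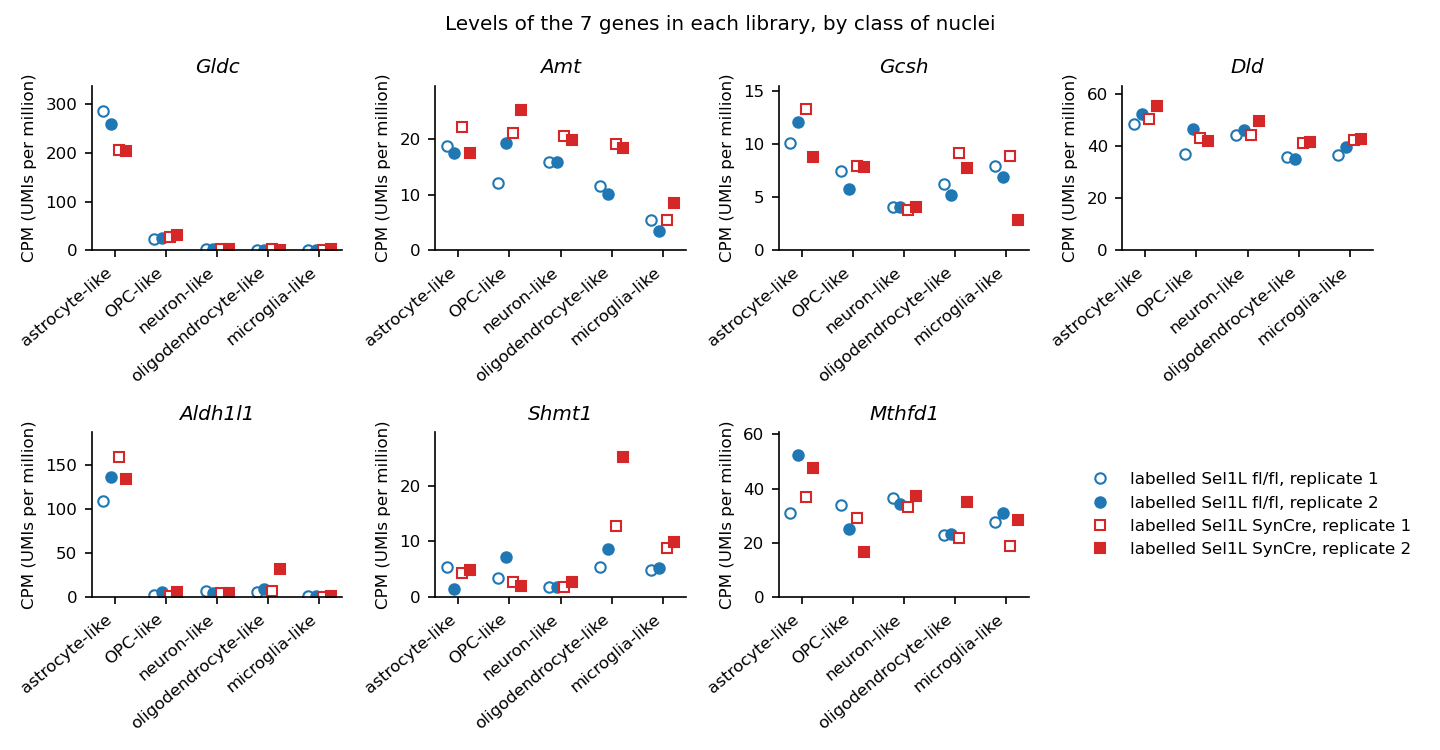
Level of each gene in CPM (y axis, linear, from 0, with its own scale per gene) in 5 classes of nuclei (x axis). Circles are the libraries labelled *Sel1L* fl/fl and squares those labelled *Sel1L* SynCre, open for replicate 1 and filled for replicate 2. *Gldc* and *Aldh1l1* stand at 204 to 287 and 109 to 159 CPM in astrocyte-like nuclei and at most 32.2 CPM in each other class, while *Dld* lies between 35.1 and 55.4 CPM throughout.

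Of the remaining parts of the cleavage system, *Gcsh* had the order of *Gldc* in CPM in every library, with smaller gaps. *Amt* and *Dld* did not keep that order. The *Gcsh* order rested on few counts, with a UMI in 63 of 1645 astrocyte-like and 36 of 1283 OPC-like nuclei. *Gcsh*, the H protein, stood at 10.1, 12.1, 13.3 and 8.74 CPM in astrocyte-like nuclei, 7.50, 5.76, 7.96 and 7.80 in OPC-like nuclei and 4.12, 4.04, 3.79 and 4.12 in neuron-like nuclei, so its astrocyte and neuron ranges were apart. *Amt*, the T protein, stood at 18.8, 17.5, 22.3 and 17.5 CPM in astrocyte-like nuclei, 12.1, 19.4, 21.2 and 25.4 in OPC-like nuclei and 15.9, 15.9, 20.7 and 19.98 in neuron-like nuclei, and the 3 ranges overlapped. *Dld*, the shared L protein, stood at 48.5, 52.4, 50.4 and 55.4 CPM in astrocyte-like nuclei, 36.9, 46.8, 43.3 and 41.9 in OPC-like nuclei and 44.4, 46.3, 44.3 and 49.8 in neuron-like nuclei, with OPCs under astrocytes in every library. Of the cytosolic enzymes, *Mthfd1* stood at 31.0, 52.4, 36.7 and 47.6 CPM in astrocyte-like nuclei, 34.0, 25.2, 29.2 and 16.6 in OPC-like nuclei and 36.6, 34.2, 33.2 and 37.3 in neuron-like nuclei. Its highest astrocyte value and its lowest OPC value came from different libraries, and the ranges of all 3 classes overlapped. *Shmt1* was close to the limit of detection, at 5.38, 1.34, 4.30 and 4.86 CPM in astrocyte-like nuclei (25 UMIs in all) and 3.46, 7.20, 2.65 and 1.95 CPM in OPC-like nuclei (21 UMIs in all). In neuron-like nuclei, where depth was greater, it stood at 1.73, 1.71, 1.86 and 2.71 CPM on 527 UMIs.

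The contrast of astrocytes with neurons was tested with edgeR on UMIs summed per class and library, with the library as a block and a threshold of 0.05 on the adjusted p. Of the 6 genes that passed the filter on low counts, *Gldc*, *Aldh1l1* and *Gcsh* were higher in astrocyte-like nuclei. A gene could pass this filter through 1 class alone, as *Aldh1l1* did through astrocyte-like nuclei. The classes were far apart, with 69.3% of all genes tested past the threshold and 34% higher in astrocytes, so the call alone said little and the sizes are given. The log2 fold change was 6.53 (SE 0.147, adjusted p = 2.55e-14) for *Gldc*, 4.54 (SE 0.189, adjusted p = 1.41e-11) for *Aldh1l1* and 1.26 (SE 0.220, adjusted p = 0.000115) for *Gcsh*. *Amt* (−0.13, SE 0.155, adjusted p = 0.482), *Dld* (−0.06, SE 0.0974, adjusted p = 0.582) and *Mthfd1* (−0.03, SE 0.167, adjusted p = 0.874) did not pass, and *Shmt1* was left out by the filter. Without *Sel1L* fl/fl replicate 1 the same 3 genes passed, with log2 fold changes of 6.38, 4.80 and 1.36. A filter of at least 10 counts in every class and library left *Gcsh*, *Aldh1l1* and *Shmt1* untested, and *Gldc* passed again (6.46, adjusted p = 1.89e-14).

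Against OPCs, 47.5% of all genes passed and 24.3% were higher in astrocytes. *Aldh1l1* was higher in astrocyte-like nuclei by 5.30 on the log2 scale (SE 0.328, adjusted p = 3.32e-09), *Gldc* by 3.10 (SE 0.158, adjusted p = 3.71e-10) and *Mthfd1* by 0.56 (SE 0.216, adjusted p = 0.0447). *Gcsh* (0.62, adjusted p = 0.0858), *Dld* (0.27, adjusted p = 0.0770) and *Amt* (−0.00, SE 0.201, adjusted p = 0.998) did not pass. The *Mthfd1* call was lost without *Sel1L* fl/fl replicate 2 (0.42, adjusted p = 0.193), without *Sel1L* SynCre replicate 1 (0.61, adjusted p = 0.0976) and without *Sel1L* SynCre replicate 2 (0.34, adjusted p = 0.231).

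OPCs differed from neurons in *Gldc*, which was higher in OPC-like nuclei by 3.43 (SE 0.195, adjusted p = 8.98e-10), where 60.6% of all genes passed, 29% of them higher in OPCs and 31.6% higher in neurons as shares of the genes tested. *Gcsh* was higher in OPCs by 0.64 (SE 0.2501, adjusted p = 0.0384), and *Dld* (−0.33, SE 0.101, adjusted p = 0.0103) and *Mthfd1* (−0.59, SE 0.181, adjusted p = 0.0108) were lower. *Aldh1l1* (−0.76, SE 0.459, adjusted p = 0.167) and *Amt* (−0.13, SE 0.158, adjusted p = 0.511) did not pass. The *Gcsh* call was lost whichever library was left out (adjusted p = 0.0521 to 0.123), the *Dld* call without *Sel1L* fl/fl replicate 1 (−0.28, adjusted p = 0.0761) or *Sel1L* SynCre replicate 2 (−0.28, adjusted p = 0.0701), and the *Mthfd1* call without *Sel1L* SynCre replicate 2 (−0.41, adjusted p = 0.0712). With pseudobulks thinned to equal totals, *Gldc* alone passed.

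Shares of nuclei with a UMI were compared at an equal depth, after each nucleus was thinned to 2000 UMIs and shallower nuclei were left out (204 astrocyte-like, 397 neuron-like and 53 OPC-like). *Gldc* was then found in 35.7% ± 6.33 of astrocyte-like nuclei (SD, n = 4), 5.01% ± 1.61 of OPC-like and 0.508% ± 0.156 of neuron-like nuclei, the class that serves here as the background. In single libraries the astrocyte share was 41.5% (95% Wilson interval 36.7 to 46.6), 40.7% (34.0 to 47.9), 30.9% (27.5 to 34.6) and 29.6% (24.0 to 35.8). *Aldh1l1* was found in 24.2% ± 3.62, 0.870% ± 0.597 and 0.919% ± 0.161 in the same order, so its OPC share did not exceed that of neurons. For *Dld* (8.84%, 8.70% and 9.50%) and *Amt* (3.75%, 3.64% and 4.07%) the 3 classes lay within 1 percentage point of each other. *Gcsh* was found in 2.12% ± 1.36 of astrocyte-like, 1.53% ± 0.348 of OPC-like and 0.886% ± 0.0717 of neuron-like nuclei. Its astrocyte share ran from 0.435% to 3.70% over the libraries, which overlapped both other classes. Unthinned, with medians of 3008 to 3213 UMIs in astrocyte-like and 9783 to 10764 in neuron-like nuclei, *Gldc* was found in 49.3% and 2.30% and *Amt* in 5.96% and 18.2%, so the gap between these classes in *Amt* was wider unthinned, where neuron-like nuclei were deeper. The intervals cover counting error only.

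The OPC level of *Gldc* was 11.99% ± 3.36 (SD, n = 4) of the astrocyte level of the same library, and that of *Aldh1l1* was 2.68% ± 1.70. Among the 9 astrocyte markers, the OPC level ran from 0.808% for *Gja1* and 0.9499% for *Gfap* to 12.1% for *Slc1a3* and 55.9% for *Gpc5*, with 25.6% for the sum of all 9. *Gja1* encodes the gap junction protein and *Gfap* the filament protein of astrocytes. *Gldc* thus lay near *Slc1a3*, a glutamate transporter, and above *Gja1*, *Gfap* and *Aldh1l1* in its OPC level relative to astrocytes. Whether astrocyte RNA in OPC-like nuclei had a part in it was not tested. In neuron-like nuclei *Gldc* reached 0.958% and *Aldh1l1* 3.85% of the astrocyte level, against 2.96% for the summed markers and 0.391% for *Gja1*.

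Of the other genes of glycine, serine and folate metabolism, listed as 59 genes in 6 groups, 43 were tested between astrocytes and neurons. Of these, 18 were higher and 7 lower in astrocytes, where 34% of all genes tested were higher and 35.2% lower. The same shares stand beside the counts of each group below. Because a gene could pass the filter through the class where it was high, these counts only describe the genes kept. The median log2 fold change of the 43 was 0.19 against −0.01 over all genes. The serine synthesis genes were 3 of 3 higher, among them *Phgdh* (4.29, SE 0.248, adjusted p = 5.42e-10), which commits glycolytic carbon to serine, and *Psat1* (3.30, SE 0.180, adjusted p = 2.89e-10). Of glycine use and transport, 15 genes were listed and 7 tested, with 5 higher and 0 lower. They were led by *Slc7a10* (8.05, SE 0.187, adjusted p = 3.15e-14), a small neutral amino acid exchanger. *Sardh* (4.95, SE 0.316, adjusted p = 1.76e-09) and *Pipox* (4.02, SE 0.445, adjusted p = 1e-06), both sarcosine oxidizing enzymes, came next. The mitochondrial folate genes were split, with 2 of 8 higher and 3 lower, and *Aldh1l2* (−2.82, SE 0.452, adjusted p = 5.11e-05) and *Mthfd1l* (−1.89, SE 0.269, adjusted p = 1.51e-05), the mitochondrial counterparts of *Aldh1l1* and of part of *Mthfd1*, were lower in astrocytes. *Pdhx* (−0.43) and *Slc25a32* (−0.40) were also lower in astrocytes. The −2.82 of *Aldh1l2* pools unlike gaps, because its genotype difference differed between the classes by −3.57 on the log2 scale (edgeR interaction term). The gap was wider in the *Sel1L* SynCre than in the *Sel1L* fl/fl libraries, and the levels are given with the flagged results below. Of the 7 genes that make or attach lipoate, the cofactor of *Gcsh*, 4 were tested with 0 higher and 1 lower, and of the 9 subunits of the other complexes that use *Dld*, 4 were higher and 2 lower.

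**Figure D2:**
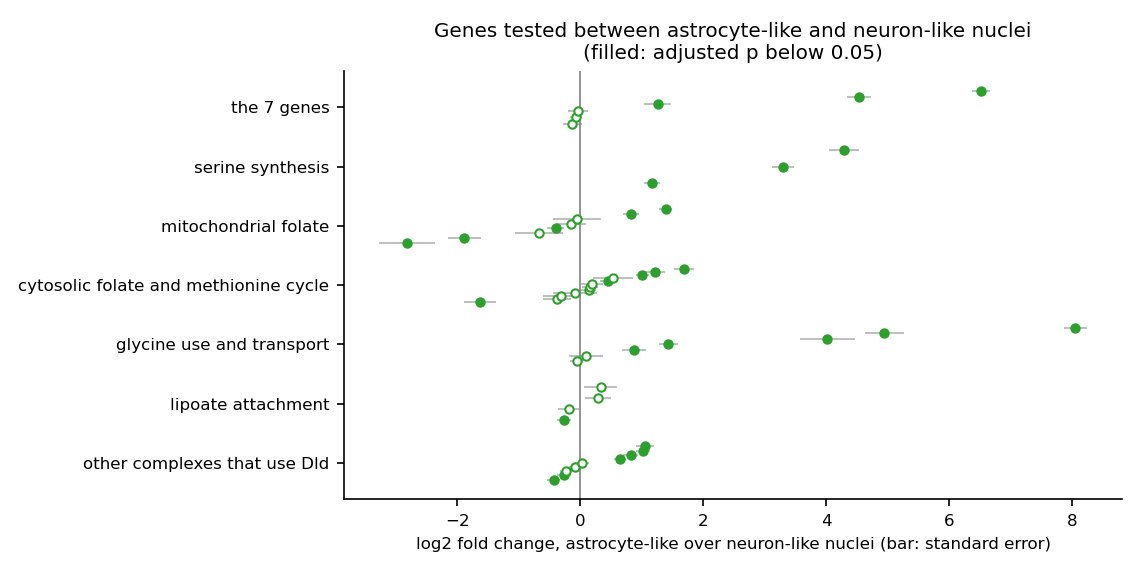
Log2 fold change of astrocyte-like over neuron-like nuclei (x axis, bar: standard error) for the 7 genes and the 6 pathway groups (y axis), 1 point per gene tested and filled where the adjusted p was below 0.05. *Gldc* at 6.53 and *Aldh1l1* at 4.54 are the rightmost points of the top row, and 3 of its 6 points lie at −0.13 to −0.03.

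Across 16 cell types, 5 classes and 11 neuron subtypes, the *Gldc* order was astrocyte-like (239 CPM), OPC-like (27.7), endothelial-like (9.63 ± 5.69) and *Pvalb*-like (6.29 ± 2.35), and the other 12 types had means of 0.970 to 3.24 CPM. Outside this order, the 61 choroid plexus-like nuclei taken out of the astrocyte-like cluster (9, 1, 38 and 13 by library) held *Gldc* at 58.8, 0, 71.6 and 166 CPM on 38 UMIs, with 101 CPM over all of them. Astrocytes and OPCs each stood apart from the type below, endothelial-like and *Pvalb*-like values overlapped, and *Pvalb*-like values stayed above those of CA3-like neurons, the next in order. From there down each neighbour overlapped the next. The endothelial-like cluster was mixed. Endothelial markers summed to 3204 to 5992 CPM there, and markers of vascular fibroblasts or pericytes to 1991 to 2946 CPM. Its levels are thus not those of endothelial cells alone. *Aldh1l1* was led by astrocyte-like nuclei with no overlap, and then by oligodendrocyte-like (13.1 ± 12.7) and L4/5 IT-like nuclei (11.9 ± 4.17). The oligodendrocyte mean fell to 6.78 CPM, under L4/5 IT-like neurons, without *Sel1L* SynCre replicate 2. Among neuron subtypes its mean ran from 11.9 CPM in L4/5 IT-like to 0.491 CPM in CA3-like neurons, a ratio of 24.3, the widest of the 7 genes, and the intratelencephalic and corticothalamic neurons of the cortex (5.04 to 11.9 CPM) all stood above the hippocampal DG-, CA1- and CA3-like neurons (0.491 to 1.15 CPM). *Gldc* spanned a ratio of 6.48 between *Pvalb*-like and CA1-like neurons.

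*Amt* was flat, with means of 14.8 to 24.3 CPM in 15 of the 16 types, each overlapping the next, and 5.77 ± 2.10 CPM in microglia-like nuclei, which did not overlap the type above. *Dld* was highest in *Pvalb*-like (69.6 ± 5.60) and *Sst*-like (58.4 ± 5.44) neurons and lowest in oligodendrocyte-like nuclei (38.4 ± 3.46), and *Mthfd1* ran from 50.9 ± 3.75 CPM in *Lamp5*-like neurons to 19.1 ± 5.51 in endothelial-like nuclei, in both genes with every neighbour overlapping. *Gcsh* was led by astrocyte-like (11.1 ± 2.03) and endothelial-like nuclei (11.04 ± 3.79), and L2/3 IT-like neurons were lowest (2.36 ± 0.791). *Shmt1* was led by oligodendrocyte-like (13.0 ± 8.72), microglia-like (7.23 ± 2.58) and DG-like nuclei (6.37 ± 2.13) and then astrocyte-like nuclei (3.97 ± 1.81), and all neighbours overlapped. Outside the order, 185 immature oligodendrocyte-like nuclei held *Shmt1* at 50.2 and 67.3 CPM (33 and 25 UMIs) in the *Sel1L* fl/fl libraries, and the *Sel1L* SynCre libraries had only 8 and 3 such nuclei with 0 and 1 UMIs. A cluster of 513 neuron-like nuclei led by *2610307P16Rik*, *Igfbpl1*, *Trp73* and *Draxin* was named Cajal-Retzius-like from 3 of the 4 markers in its list. It held *Gldc* at 20.4, 22.2, 27.5 and 12.3 CPM on 36 UMIs. The *Amt* mean there, 28.2 CPM, was above those of the 16 types.

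**Figure D3:**
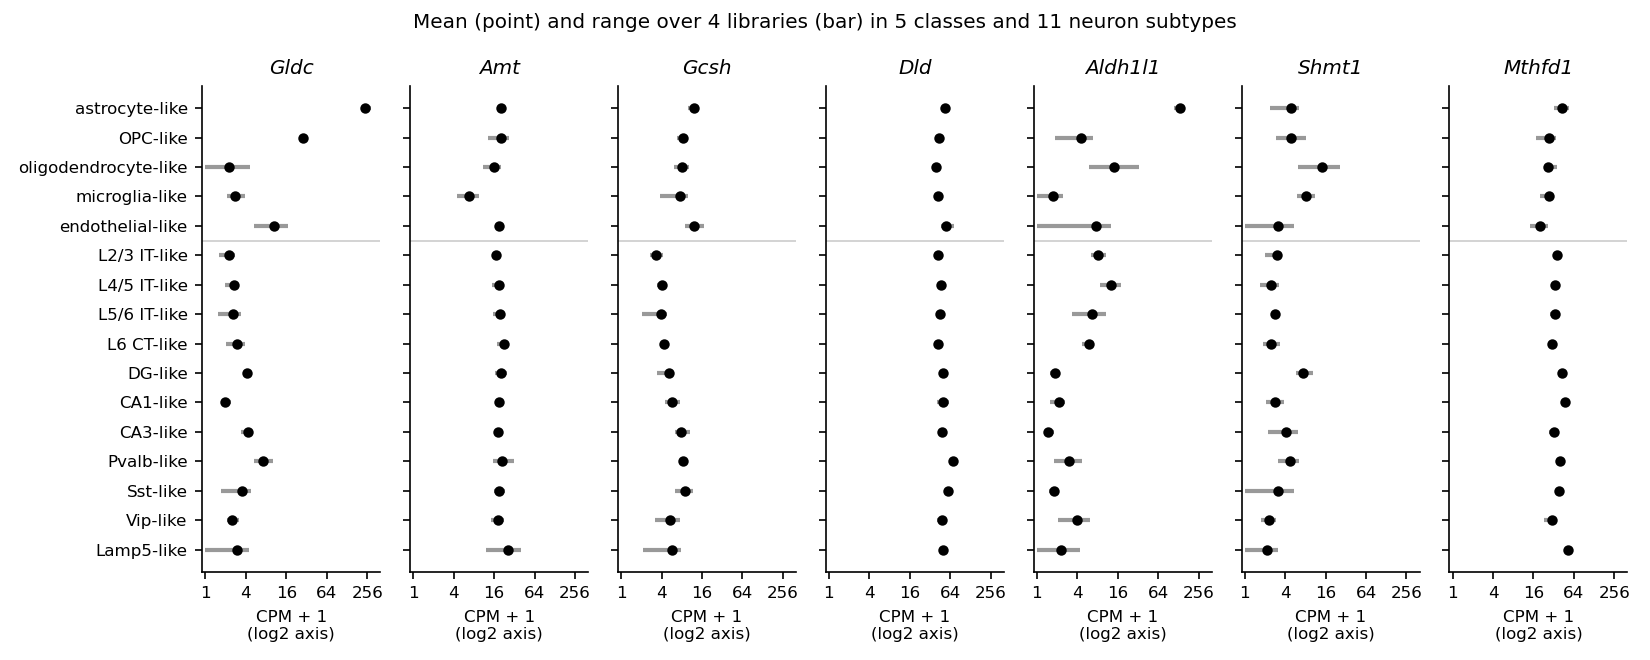
Mean level (point) and range over the 4 libraries (bar) of each gene in 5 classes and 11 neuron subtypes (y axis), as CPM + 1 on a log2 axis (x axis). *Gldc* and *Aldh1l1* stand apart in astrocyte-like nuclei, and *Gldc* again in OPC-like nuclei at 27.7 CPM. Means of *Dld* run from 38.4 to 69.6 CPM and those of *Mthfd1* from 19.1 to 50.9 CPM. *Amt* lies at 14.8 to 24.3 CPM except in microglia-like nuclei, at 5.77 CPM.

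Between the genotypes as labelled, 0 of the 6 genes tested in astrocyte-like nuclei passed the threshold with edgeR or with DESeq2, and 1 had an unadjusted edgeR p below 0.05. Of all genes tested, 0.542% were called and 10.7% had an unadjusted p below 0.05. That gene was *Gldc*, with 287 and 259 CPM in the *Sel1L* fl/fl and 206 and 204 CPM in the *Sel1L* SynCre libraries, lower without overlap, as 20.4% of all genes tested were. Its log2 fold change was −0.42 (SE 0.166, adjusted p = 0.382 with edgeR), and −0.36 (adjusted p = 0.713) without *Sel1L* fl/fl replicate 1. *Aldh1l1* (0.28, SE 0.201, adjusted p = 0.690), *Amt* (0.17, SE 0.333, adjusted p = 0.922), *Gcsh* (0.11, SE 0.434, adjusted p = 0.967), *Dld* (0.07, SE 0.209, adjusted p = 0.953) and *Mthfd1* (0.05, SE 0.284, adjusted p = 0.977) overlapped between genotypes. In the same nuclei the astrocyte markers summed to 20450, 22162, 20822 and 19051 CPM, which overlapped. Markers of ependymal cells summed to 37.0, 14.8, 96.1 and 295 CPM and those of choroid plexus to 266, 99.4, 315 and 513 CPM, both without overlap and higher in the *Sel1L* SynCre libraries. Endothelial markers were also higher without overlap (12.1, 8.06, 17.2 and 44.7 CPM) and OPC markers lower (203, 156, 82.5 and 129 CPM). Markers of neurons, oligodendrocytes, immature oligodendrocytes, microglia and vascular fibroblasts or pericytes overlapped. Of all genes tested in these nuclei, 40.7% did not overlap in either direction. The part of ependymal, choroid plexus, endothelial and OPC cells in the *Gldc* difference was not tested.

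In neuron-like nuclei, 0 of 7 genes passed with edgeR or DESeq2 and 1 had an unadjusted edgeR p below 0.05, where 0.188% of all genes were called and 12.8% had an unadjusted p below 0.05. *Amt* stood at 15.9 and 15.9 CPM in the *Sel1L* fl/fl and 20.7 and 19.98 CPM in the *Sel1L* SynCre libraries, higher without overlap, as 29.6% of all genes tested were. Its log2 fold change was 0.30 (SE 0.0970, adjusted p = 0.277), and 0.33 (adjusted p = 0.232) without *Sel1L* fl/fl replicate 1. *Aldh1l1* was lower without overlap, as 15.1% of all genes were (−0.39, SE 0.192, adjusted p = 0.455), and *Gldc* (0.24, SE 0.211, adjusted p = 0.698) and *Shmt1* (0.35, SE 0.2497, adjusted p = 0.612) were higher without overlap. The *Aldh1l1* difference was −0.13 (adjusted p = 0.774) without *Sel1L* fl/fl replicate 1. The summed astrocyte markers in neuron-like nuclei, at 683, 627, 587 and 546 CPM, were lower without overlap as well, and their part in the *Aldh1l1* difference was not tested. *Gcsh* (−0.10), *Dld* (−0.00) and *Mthfd1* (−0.06) overlapped, with adjusted p = 0.841, 0.990 and 0.833. In OPC-like nuclei 0 of 4 passed with either tool, 0 had an unadjusted p below 0.05, 3.47% of all genes were called and 13.1% had an unadjusted p below 0.05, with *Amt* at 0.59 (SE 0.332, adjusted p = 0.483), *Gldc* at 0.27 (SE 0.275, adjusted p = 0.778), *Dld* at 0.04 (adjusted p = 0.968) and *Mthfd1* at −0.37 (adjusted p = 0.713). Levels of *Gldc* and *Amt* were higher without overlap there, as 20.7% of all genes were. The differences without *Sel1L* fl/fl replicate 1 were 0.28 for *Amt* (adjusted p = 0.939), 0.24 for *Gldc* (adjusted p = 0.940), −0.11 for *Dld* and −0.10 for *Mthfd1*.

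**Figure D4:**
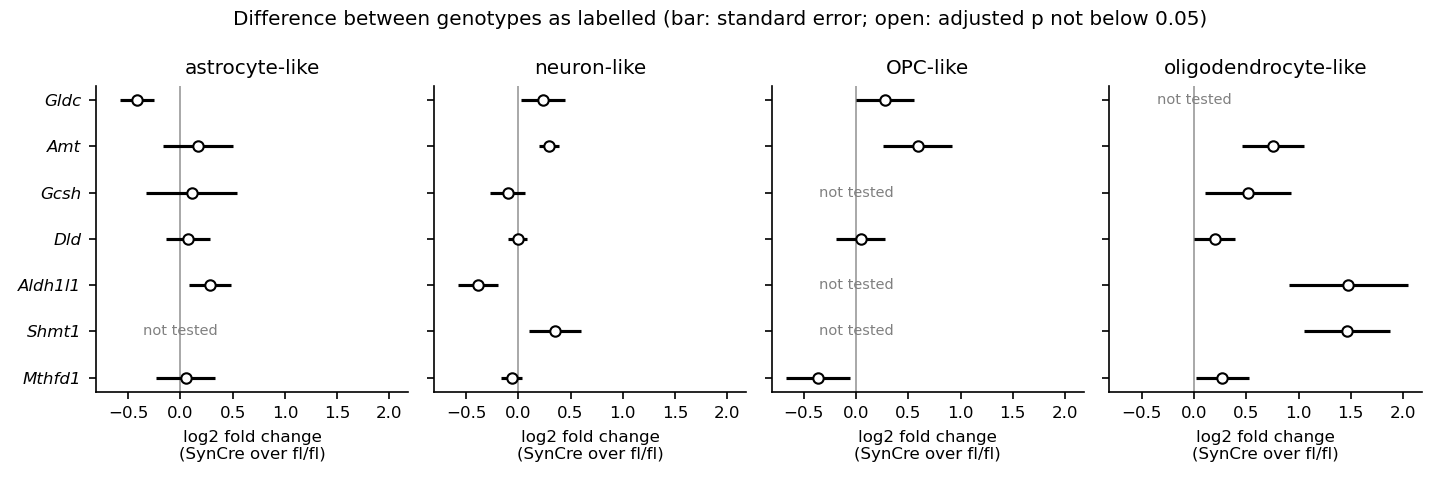
Log2 fold change of the libraries labelled *Sel1L* SynCre over those labelled *Sel1L* fl/fl (x axis, bar: standard error) for the 7 genes (y axis) in 4 classes of nuclei, with genes left out by the filter on low counts marked as not tested. All points are open because none passed the adjusted p of 0.05, and *Gldc* lies at −0.42 in astrocyte-like and at 0.24 in neuron-like nuclei.

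In oligodendrocyte-like nuclei 0 of 6 genes passed with edgeR or DESeq2, and 3 had an unadjusted edgeR p below 0.05, where 0.925% of all genes were called and 10.9% had an unadjusted p below 0.05. *Shmt1* stood at 5.32 and 8.64 CPM in the *Sel1L* fl/fl and 12.8 and 25.3 CPM in the *Sel1L* SynCre libraries (36, 30, 14 and 26 UMIs), a log2 fold change of 1.46 (SE 0.410, adjusted p = 0.165). *Aldh1l1* stood at 5.03, 8.93, 6.39 and 32.1 CPM (34, 31, 7 and 33 UMIs), so that its fold change of 1.48 (SE 0.571, adjusted p = 0.372) came from *Sel1L* SynCre replicate 2. The astrocyte markers in these nuclei summed to 235, 229, 287 and 222 CPM, and the part of astrocyte RNA in the *Aldh1l1* difference was not tested. *Amt* stood at 11.5 and 10.1 against 19.2 and 18.5 CPM (0.76, SE 0.295, adjusted p = 0.374), and *Amt*, *Gcsh*, *Dld* and *Shmt1* were higher without overlap, as 22.8% of all genes were. Without *Sel1L* SynCre replicate 1, *Aldh1l1* (2.18, adjusted p = 0.000135) and *Shmt1* (1.82, adjusted p = 0.00502) passed. *Aldh1l1* (1.04), *Shmt1* (1.08) and *Amt* (0.86) each had an adjusted p of 0.896 without *Sel1L* fl/fl replicate 1. In microglia-like nuclei only *Dld* and *Mthfd1* had counts enough to be tested, and 0 of 2 passed with either tool, 0 had an unadjusted p below 0.05, 0.0468% of all genes were called and 8.16% had an unadjusted p below 0.05. *Dld* stood at 0.12 (adjusted p = 0.927) and *Mthfd1* at −0.36 (adjusted p = 0.793).

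In the 11 neuron subtypes, 54 tests of the genes gave 0 calls with edgeR or DESeq2 and 6 unadjusted p below 0.05. The subtypes are parts of the neuron-like nuclei of the same 4 libraries, so their agreement is not independent repetition. How many of all genes agree in direction over the subtypes was not counted. Over the same subtypes together, 12.8% of the tests of all genes had an unadjusted p below 0.05. Of all genes, 0.00775% were called in CA1-like, 0.0175% in *Vip*-like, 0.0821% in CA3-like, 0.359% in L2/3 IT-like, 0.423% in L5/6 IT-like, 0.572% in L6 CT-like, 1.37% in *Lamp5*-like, 2.05% in L4/5 IT-like, 3.95% in DG-like, 4.67% in *Pvalb*-like and 9.05% in *Sst*-like neurons. *Amt* had a positive log2 fold change in 10 of 11 subtypes, from −0.09 in CA3-like to 1.18 in *Lamp5*-like neurons, and was higher without overlap in 7 of 11. These were *Lamp5*-like (where 31.3% of all genes were), DG-like (29.6%), L6 CT-like (27.7%), L4/5 IT-like (27.5%), CA1-like (24.9%), L2/3 IT-like (23.3%) and L5/6 IT-like neurons (21.9%). *Amt* overlapped in CA3-like (27.7%), *Pvalb*-like (30.9%), *Sst*-like (33.7%) and *Vip*-like neurons (19.6%). In *Lamp5*-like neurons it stood at 10.95, 18.2, 28.6 and 39.7 CPM (1.18, SE 0.354, adjusted p = 0.131), and in L6 CT-like and DG-like neurons its differences were 0.41 (adjusted p = 0.365) and 0.43 (adjusted p = 0.264). In L4/5 IT-like neurons *Aldh1l1* stood at 17.2 and 13.2 against 7.77 and 9.55 CPM (−0.87, SE 0.223, adjusted p = 0.0751) and *Shmt1* at 0.859 and 0.718 against 1.85 and 2.28 CPM (1.31, SE 0.510, adjusted p = 0.252). In *Pvalb*-like neurons *Gldc* stood at 9.03 and 7.47 against 4.21 and 4.44 CPM (−1.01, SE 0.394, adjusted p = 0.186). Without *Sel1L* fl/fl replicate 2, the differences were −1.06 for *Aldh1l1* in L4/5 IT-like and 1.47 for *Amt* in *Lamp5*-like neurons. The only control there was replicate 1, the *Sel1L* fl/fl library that held Cre UMIs. With *Sel1L* fl/fl replicate 1 left out, the values were −0.61 for *Aldh1l1* and 1.498 for *Shmt1* in L4/5 IT-like neurons. They were 0.84 for *Amt* in *Lamp5*-like and −0.83 for *Gldc* in *Pvalb*-like neurons.

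Whether the genotype difference itself differed between astrocytes and neurons was tested as an interaction in edgeR. Of the 7 genes 0 passed with edgeR or DESeq2, 2 had an unadjusted p below 0.05, 1.27% of all genes were called and 8.15% had an unadjusted p below 0.05. The astrocyte log2 fold change less the neuron one was 0.69 for *Aldh1l1* (SE 0.214, adjusted p = 0.0815) and −0.66 for *Gldc* (SE 0.217, adjusted p = 0.131). The other 5 genes had values of −0.12 to 0.22 with adjusted p of 0.978 or more. Without *Sel1L* fl/fl replicate 2 the *Aldh1l1* difference was 1.09, with replicate 1, which held Cre UMIs, as the only control. Without *Sel1L* fl/fl replicate 1 it was 0.26 and that of *Gldc* −0.54.

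Among the 59 other genes of the pathway, 39 were tested between genotypes in astrocyte-like nuclei, with 0 higher and 1 lower, where 0.542% of all genes were called. That gene was *Pipox*, at 47.1 and 51.1 CPM in the *Sel1L* fl/fl and 9.38 and 8.74 CPM in the *Sel1L* SynCre libraries (−2.39, SE 0.295, adjusted p = 0.00654), and it passed without *Sel1L* fl/fl replicate 1 (−2.48, adjusted p = 0.0412). In neuron-like nuclei 0 of 56 passed with edgeR and 12 had an unadjusted p below 0.05, against 12.8% of all genes tested. With DESeq2 3 passed, all higher, where 270 of the 20167 genes tested were called higher. By subtype, *Lamp5*-like neurons had 1 of 34 higher (*Psph*, against 0.782% of all genes higher), *Pvalb*-like 3 of 41 (*Phgdh*, *Psph* and *Aldh1l2*, against 2.46%), L4/5 IT-like 4 of 45 (*Phgdh*, *Psph*, *Shmt2* and *Mthfd2*, against 1.33%), DG-like 7 of 44 (against 2.1%) and *Sst*-like 8 of 39 (against 4.96%), with 0 lower in each. The other 6 subtypes, with 38 to 48 tested in each, had 0 in either direction. In oligodendrocyte-like nuclei 2 of 38 were higher (*Mthfd2* and *Mat2a*, against 0.715%) and 0 lower, and 0 passed without *Sel1L* fl/fl replicate 1 or without replicate 2. In microglia-like nuclei 0 of 34 passed, and 2 had an unadjusted p below 0.05, against 8.16% of all genes tested. The genes named here for neuron subtypes and oligodendrocytes were chosen after their values were seen. In OPC-like nuclei 10 of 41 were higher and 0 lower, against 2% of all genes higher, led by *Mthfd2* (2.75, adjusted p = 9.77e-09), *Shmt2* (2.32, adjusted p = 0.0157), *Phgdh* (1.80, adjusted p = 0.000597) and *Aldh1l2* (1.61, adjusted p = 6.59e-05). These were serine synthesis (3 of 3) and mitochondrial folate genes (4 of 8) in the main, while the 4 members tested in the same nuclei did not pass. Over all genes, DESeq2 called 111 of 11179 higher in OPC-like nuclei. Without *Sel1L* fl/fl replicate 1, 7 of 41 were higher, and *Shmt2* (1.99, adjusted p = 0.399) and the glycine transporter gene *Slc6a9* (0.85, adjusted p = 0.157) were among those that passed no more. Without *Sel1L* SynCre replicate 1 the count was 2 of 42 (*Mthfd2* and *Mthfd1l*), and DESeq2 gave 6 of 41.

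The genes whose levels most resembled each of the 7 were sought over 18 cell types, the 16 above, L5/6 NP-like neurons and the Cajal-Retzius-like cluster. Pearson's r of log2(CPM + 1) was taken among 15001 genes with at least 10 CPM in some type, as a description over types that share libraries. *Gldc* was most like *Slc7a10* (r = 0.953), *Mettl11b* (0.9501) and *Chrdl1* (0.941), all highest in astrocyte-like nuclei. *Aldh1l1* was most like *9430041J12Rik* (0.899), *Pacsin3* (0.875) and its own antisense gene *Gm15756* (0.873), with which it may share reads if counting did not use strand. *Amt* was most like *Brsk1* (0.934), *Chic1* (0.922) and *Zfp112* (0.912), *Gcsh* like *Ikbip* (0.899), *Ndufa12* (0.889) and *Golim4* (0.889), and *Dld* like *Gm26631* (0.881), *Mapk8ip3* (0.876) and *Idh3a* (0.846). *Shmt1* came closest to *Rbbp5* (0.853), *Nmral1* (0.848) and *Rbm17* (0.841), and *Mthfd1* to *Vipas39* (0.841), *B230307C23Rik* (0.839) and *Timm44* (0.819). Among the 7 genes themselves, *Gldc* was nearest to *Gcsh* (0.654) and *Aldh1l1* (0.552), and its r with *Amt* and *Dld*, its partners in the cleavage system, was 0.266 and 0.228.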

How the data were processed

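Nuclei of the cortex and hippocampus were sorted by flow cytometry and sequenced as 10x 3′ libraries, 1 per mouse. The authors deposited raw UMI counts per gene and nucleus, made with Cell Ranger 6.1.0 on build GRCm38 per the file headers and the submitters' processing notes. The counts were not normalized by the authors. Strand and intron settings are not given in the sources used here. Nuclei with more than 600 genes and under 5% mitochondrial UMIs were kept, and 430 to 1257 likely doublets per library were removed with Scrublet in scanpy 1.11.5.

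Nuclei were integrated and clustered with Seurat 5.3.0 and named from marker lists, after which 61 choroid plexus-like and 179 immature oligodendrocyte-like nuclei inside the astrocyte-like and OPC-like clusters were taken out, a step added after the data were seen. By library, *Sel1L* fl/fl first, 108, 62, 6 and 3 of these were immature oligodendrocyte-like and 9, 1, 38 and 13 choroid plexus-like. An unnamed cluster of 832 nuclei was left out. The names are rebuilt and may differ from those of the study. UMIs were summed per class and library and tested with edgeR 4.0.16 (quasi-likelihood test, TMM, Benjamini-Hochberg adjustment over all genes tested), between genotypes without a block and between classes with the library as a block. Each standard error (SE) was derived from that test, as the absolute log2 fold change over the square root of the F statistic. DESeq2 1.42.0, RLE size factors, other filters on genes and nuclei, thinned counts, names without integration, the replicate number as a block and each library left out were the alternatives. The tests were checked on simulated counts with large changes in genes of many counts. That check does not cover small differences or genes with few UMIs. With 2 libraries per group, an exact permutation test of a single value cannot go below p = 0.333, and p-values measure the spread between these mice only.

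The 7 genes, the pathway lists and the tests were chosen with earlier results of these data known. All 7 genes were named in every comparison. Of the pathway list, genes named were those past the threshold between genotypes in astrocyte-like, neuron-like or OPC-like nuclei, at most the 5 with the largest absolute log2 fold change per class, and the 5 largest in each direction between astrocytes and neurons. Some genes that these rules name are not reported here. Other genes named are markers, likeness genes and genes whose astrocyte and neuron differences passed the interaction test. Gene positions came from GENCODE vM21, in which 32235 of 32286 features were found, and promoters from RefSeq (GRCm38.p6).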

Additional observations from a re-analysis of the deposited data

Results flagged for a closer look

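In 3 of 35 groups of 4 libraries, 1 library lay far from the other 3 (its gap to the nearest, over the range of the group, was above Dixon's critical value), where chance alone gives about 5% of groups. *Sel1L* SynCre replicate 2 was that library each time. It held *Shmt1* at 2.71 CPM in neuron-like nuclei against 1.71 to 1.86 CPM in the others, *Aldh1l1* at 32.1 CPM in oligodendrocyte-like nuclei against 5.03 to 8.93 CPM, and *Mthfd1* at 35.0 CPM in oligodendrocyte-like nuclei against 21.9 to 23.0 CPM.

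The genotype difference itself differed between astrocyte-like and neuron-like nuclei (edgeR interaction term) for 4 of the 57 other genes of the pathway tested. In each case it was lower in astrocytes relative to neurons, as it was for 0.459% of all genes tested. For *Phgdh* the difference was −1.16 on the log2 scale (adjusted p = 0.00265), with 66.0, 86.0, 81.7 and 87.4 CPM in astrocyte-like and 2.02, 2.03, 6.59 and 4.10 CPM in neuron-like nuclei. For *Aldh1l2*, which oxidizes formyl-folate in mitochondria as *Aldh1l1* does in the cytosol, it was −3.57 (adjusted p = 0.00281), with 4.04, 6.72, 1.17 and 0.971 CPM in astrocyte-like nuclei on 15 UMIs in all and 7.44, 8.54, 25.9 and 13.6 CPM in neuron-like nuclei. For *Slc7a10* it was −1.11 (adjusted p = 0.00668), with 248, 277, 206 and 157 CPM in astrocyte-like and 0.536, 0.565, 1.01 and 0.719 CPM in neuron-like nuclei. For *Pipox* it was −2.42 (adjusted p = 0.00232), with 47.1, 51.1, 9.38 and 8.74 CPM in astrocyte-like and 1.24, 1.26, 1.27 and 1.37 CPM in neuron-like nuclei. Without *Sel1L* fl/fl replicate 1, *Phgdh* (−1.40, adjusted p = 0.0101) and *Aldh1l2* (−3.91, adjusted p = 0.0326) passed, and *Slc7a10* (−1.18, adjusted p = 0.0695) and *Pipox* (−2.50, adjusted p = 0.0527) did not. *Pipox* alone passed with DESeq2 (−2.43, adjusted p = 0.00575) and without *Sel1L* SynCre replicate 1, and 3 passed without *Sel1L* SynCre replicate 2. *Pipox* passed without *Sel1L* fl/fl replicate 2, as did 1 gene of the pathway in the other direction. With thinned counts or at least 10 counts in every class and library 0 passed, with 3 and 6 at an unadjusted edgeR p below 0.05.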

How the results depend on the processing

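Of the values of single genes recomputed under the alternatives, 492 kept their direction and side of the threshold, or stayed within their spread, 40 moved by more than their spread, 17 passed the threshold no more, 3 passed it anew and 37 changed sign, none of the last past the threshold in either fit. Those 40 were all shares of nuclei with a UMI, taken at 4000 UMIs or unthinned. Nearly all such shares moved, and greater depth raises them by construction. With nuclei of choroid plexus and immature oligodendrocytes kept, 1 gene was called between genotypes in OPC-like nuclei (*Shmt1*, −2.70, adjusted p = 0.000104) and 1 in the interaction (*Gldc*, −0.71, adjusted p = 0.0447). Immature oligodendrocyte-like nuclei, where *Shmt1* was high, held 26.6% and 20.6% of the UMIs of that OPC cluster in the *Sel1L* fl/fl libraries. In the *Sel1L* SynCre libraries they held 2.64% and 0.821%. Their part in the *Shmt1* call was not tested. Without a filter, 2 were called in oligodendrocyte-like nuclei (*Aldh1l1*, 1.42, adjusted p = 0.00404, and *Shmt1*, 1.41, adjusted p = 0.00439) and 2 in neuron subtypes (*Aldh1l1* in L4/5 IT-like, adjusted p = 0.00276, and *Amt* in *Lamp5*-like neurons, adjusted p = 0.0477). Thinned counts gave 1 in neuron subtypes (*Aldh1l1*, −0.97, adjusted p = 0.0471) and left 1 of 4 between OPCs and neurons. At least 10 counts everywhere left 1 between astrocytes and neurons and 1 between astrocytes and OPCs, where other genes were untested by construction or, for *Mthfd1* against OPCs, passed no more (adjusted p = 0.0559). The cause of the other changes was not tested.

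The libraries share only the replicate numbers 1 and 2, and the labels do not say that a number marks a pair. With the replicate block, 0 genes were called in astrocyte-like (*Gldc*, −0.42, adjusted p = 0.516), neuron-like (*Amt*, 0.30, adjusted p = 0.259) and OPC-like nuclei, 2 in oligodendrocyte-like nuclei (*Aldh1l1*, adjusted p = 0.0242, and *Shmt1*, adjusted p = 0.00786) and 1 in neuron subtypes (*Aldh1l1* in L4/5 IT-like, adjusted p = 0.0312). A block in the interaction could not be told apart from the library block and was not run.

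With each library left out, calls ran from 0 to 2 in oligodendrocyte-like nuclei and in neuron subtypes, 0 to 1 in the interaction, 2 to 3 between astrocytes and OPCs and 1 to 3 between OPCs and neurons, where without *Sel1L* fl/fl replicate 1 there were 2 and without *Sel1L* SynCre replicate 2 there was 1. Between genotypes in astrocyte-like nuclei, log2 fold changes that crossed 0 ran from −0.13 to 0.33 (*Amt*), −0.37 to 0.33 (*Gcsh*), −0.018 to 0.13 (*Dld*) and −0.37 to 0.42 (*Mthfd1*), in neuron-like nuclei from −0.074 to 0.052 (*Dld*) and −0.15 to 0.021 (*Mthfd1*) and in OPC-like nuclei from −0.11 to 0.18 (*Dld*). Between classes they ran from −0.15 to 0.13 (*Mthfd1*, astrocytes and neurons), −0.18 to 0.15 (*Amt*, astrocytes and OPCs) and −0.20 to 0.028 (*Amt*, OPCs and neurons), and in the interaction from −0.39 to 0.013 (*Amt*), −0.32 to 0.51 (*Gcsh*), −0.44 to 1.45 (*Shmt1*) and −0.35 to 0.61 (*Mthfd1*).

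Signs also turned with thinning for *Dld* (−0.058) and *Mthfd1* (−0.028) between genotypes in astrocyte-like and *Dld* (−0.056) in OPC-like nuclei, for *Amt* (0.15), *Dld* (0.0084) and *Mthfd1* (0.035) between astrocytes and neurons, for *Amt* (0.24) between OPCs and neurons and for *Dld* (−0.22) in the interaction. With doublets kept they turned for *Gcsh* (−0.012), *Dld* (−0.020) and *Mthfd1* (−0.041) between genotypes in astrocyte-like nuclei, *Dld* (0.018) between astrocytes and neurons and *Amt* (0.0089) between astrocytes and OPCs. With choroid plexus and immature oligodendrocyte nuclei kept they turned for *Gcsh* (−0.042) in astrocyte-like and *Dld* (−0.060) in OPC-like nuclei, *Amt* (0.0078) between astrocytes and OPCs and *Shmt1* (0.063) in the interaction, which stood at 0.0053 with more than 200 genes per nucleus.

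Over all genes, calls between genotypes were 62 in astrocyte-like nuclei (374 without a filter, 37 with doublets, 38 with choroid plexus nuclei kept, 11 with the replicate block), 38 in neuron-like nuclei (434 with DESeq2, 405 without a filter, 326 with the block, 17 with doublets), 388 in OPC-like nuclei (158 with DESeq2, 1016 with the immature nuclei kept), 106 in oligodendrocyte-like nuclei (484 without a filter, 611 with the block, 8 with doublets) and 254 in the interaction (39 with DESeq2, 43 thinned, 47 with at least 10 counts, 412 with those nuclei kept). With 1 library left out they ran from 14 (without *Sel1L* fl/fl replicate 1) to 440 (without *Sel1L* SynCre replicate 1) in astrocyte-like, 137 to 338 in neuron-like, 86 (without *Sel1L* SynCre replicate 1) to 552 in OPC-like, 0 (without either *Sel1L* fl/fl library) to 489 (without *Sel1L* SynCre replicate 1) in oligodendrocyte-like nuclei and 128 to 240 in the interaction. Depth limits *Shmt1*, with 25 UMIs in astrocyte-like and 21 in OPC-like nuclei, and *Aldh1l1* in OPC-like nuclei, with 18 UMIs. It also limits *Gcsh*, which had a UMI in 63 astrocyte-like and 36 OPC-like nuclei.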
